A study of Mus musculus with 59 samples.

Results

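The 10 genes described here are markers of the renal tubule from the thick ascending limb of the loop of Henle to the collecting duct, read in mouse kidney mRNA libraries. They were taken by symbol and not by a cut on a measured value, though earlier results of these data were known. All 10 were found among the 55273 features counted. The loop members are Umod and Slc12a1, to which Kcnj1 was added as a channel of the same segment. The distal tubule members are Slc12a3, Calb1 and Egf, and the collecting duct members are Aqp2, Aqp3, Hsd11b2 and Scnn1b. Egf was also read in liver.

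The mice were males, 12 weeks old, kept on a high-fat or a low-fat diet for 2 weeks. All of them were of strain FVB.129P2 and carried the Cyp3a13 knockout allele Cyp3a13tm1Ahs, the deletion Del(5Cyp3a57-Cyp3a59)1Ahs and the transgene Tg(APOE-CYP3A4)A1Ahs, in which APOE sequences drive a human drug-metabolizing cytochrome P450. No group without these alleles enters any comparison here. Each tissue was sequenced as input and as pull-down libraries. From the title of the series, which speaks of iTag labelling, pull-down is read here as RNA recovered through a tag, and input as RNA not so selected. The labels name neither the cells that were tagged nor the animals behind the libraries, so p-values measure the spread between libraries, which may be technical. Kidney had 3 high-fat and 2 low-fat libraries of each fraction, and liver had 3 of each.

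Kidney input libraries held 7970076 to 19645443 counts and kidney pull-down libraries 3741335 to 13713002, against 3033702 to 4942158 and 3389320 to 4426392 in liver. Cyp3a13 was still counted in the 10 kidney libraries, at 0.505 to 14.05 CPM, that is counts scaled to a common library total. The tissue label was checked on marker lists. In kidney, 22 proximal tubule genes summed to 40430 to 104800 CPM and 8 hepatocyte genes to 1.90 to 15.2 CPM, while the hepatocyte genes summed to 54890 to 98940 CPM in liver. The proximal tubule genes summed to 5002 to 10220 CPM in liver, so that list is not confined to kidney. Libraries of a fraction were not alike. Pull-down low-fat 1 held 2549 CPM of the 10 members together, against 1177 to 1482 in the other pull-down libraries and 4057 to 4363 in the input libraries. The same library had the highest sums among pull-down libraries of 10 endothelial genes (183 CPM against 63.4 to 102) and of 8 stromal and immune genes (155 against 69.7 to 89.1). Among the high-fat inputs, library 1 differed from libraries 2 and 3 by a chi-square per degree of freedom of 91.4 and 92.3, against 6.19 between libraries 2 and 3. The 2 low-fat inputs differed by 46.9 and the 2 low-fat pull-downs by 29.0. Several results that rest on pull-down low-fat 1 or input high-fat 1 are given with and without it. The pull-down changes of most single members are given with all libraries only.

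The thick ascending limb takes up salt without water through the Slc12a1 cotransporter, with Kcnj1 returning potassium to the lumen, and it secretes uromodulin, the product of Umod. The distal convoluted tubule takes up sodium chloride through Slc12a3 and calcium with the help of calbindin, the product of Calb1. It is also a main site of epidermal growth factor, the product of Egf. Principal cells of the collecting duct move water in through Aqp2 at the luminal side, under vasopressin, and out through Aqp3 at the blood side. They take up sodium through a channel that includes the Scnn1b subunit, under aldosterone, while the enzyme of Hsd11b2 inactivates glucocorticoids that would otherwise occupy the aldosterone receptor.

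Promoters are shown for 4 members to set the loop, distal tubule and collecting duct genes beside each other, with Aqp3 as the member that behaved least like the rest. The windows run from 250 bases before to 50 bases after the annotated start and were taken from RefSeq (GRCm38.p6, the mouse assembly that mm10 holds). Entries matched 8 of the 10 members. Capitals mark matches, on either strand, to TATAAA, the core TGACG of the cAMP response element, the core GTTAAT of HNF1 sites, the GATA motif AGATAA, the E-box CACGTG and the core TGTTCT of steroid receptor sites.
Umod: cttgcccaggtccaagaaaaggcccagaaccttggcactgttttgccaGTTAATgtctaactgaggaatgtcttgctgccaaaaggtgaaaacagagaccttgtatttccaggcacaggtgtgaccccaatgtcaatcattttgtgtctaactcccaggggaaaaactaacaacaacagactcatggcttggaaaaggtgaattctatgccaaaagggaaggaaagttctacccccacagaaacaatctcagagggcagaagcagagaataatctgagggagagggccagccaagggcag
Slc12a3: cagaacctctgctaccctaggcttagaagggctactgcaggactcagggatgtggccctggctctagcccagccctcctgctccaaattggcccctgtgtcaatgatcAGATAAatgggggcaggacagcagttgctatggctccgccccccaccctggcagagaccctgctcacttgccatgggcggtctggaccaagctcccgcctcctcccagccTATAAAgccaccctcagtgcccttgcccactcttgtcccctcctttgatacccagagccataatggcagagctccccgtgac
Aqp2: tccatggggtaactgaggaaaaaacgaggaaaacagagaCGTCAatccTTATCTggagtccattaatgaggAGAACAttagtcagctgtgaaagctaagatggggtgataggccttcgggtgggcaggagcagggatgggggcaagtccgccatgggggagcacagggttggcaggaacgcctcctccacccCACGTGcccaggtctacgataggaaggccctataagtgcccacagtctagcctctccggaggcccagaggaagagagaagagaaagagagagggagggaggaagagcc
Aqp3: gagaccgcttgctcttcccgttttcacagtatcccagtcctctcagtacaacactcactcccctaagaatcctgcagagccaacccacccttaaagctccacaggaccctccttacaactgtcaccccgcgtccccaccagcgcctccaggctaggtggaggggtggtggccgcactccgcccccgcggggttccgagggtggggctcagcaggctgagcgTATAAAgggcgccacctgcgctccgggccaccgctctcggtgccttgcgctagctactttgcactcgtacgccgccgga
The Umod window (chr7:119479213-119479512, minus strand) holds GTTAAT at position -202 from the start, a match found in 7.2% of the 27025 promoters in the table. The Slc12a3 window (chr8:94328958-94329257, plus strand) holds TATAAA at -32 and AGATAA at -142, which 14.2% and 11.4% of promoters hold. The Aqp2 window (chr15:99578806-99579105, plus strand) holds CGTCA at -211, TTATCT at -202, AGAACA at -179 and CACGTG at -58. Of all promoters, 21% hold TGACG, 19% TGTTCT and 7.24% the E-box on either strand. The Aqp3 window (chr4:41098134-41098433, minus strand) holds TATAAA at -29 alone. The full cAMP response element TGACGTCA and the estrogen-related receptor motif TCAAGGTCA, held by 1.88% and 0.407% of promoters, were in none of the windows read for the 8 members. These matches describe letters and were not tested for binding.

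In kidney, 9 of the 10 members fell from input to pull-down, averaged over both diets, where 26.4% of the 15023 tested genes were called lower and 26.6% higher (edgeR quasi-likelihood test, adjusted p under 0.05). The median change of the members was -1.12 on the log2 scale, against 0.01 over all tested genes. With library totals in place of TMM factors the median over all genes was 0.23, and 2899 genes were called lower and 5080 higher, against 3962 and 3999. The members then had a median of -0.91, and 8 of them were called lower. Umod, Egf, Hsd11b2 and Calb1 fell most, by 3.14- to 4.77-fold, and Aqp3 was the member that did not pass. Without pull-down low-fat 1 the median of the members was -1.47, and without input high-fat 1 it was -1.20. The median over all tested genes is not given for these 2 settings. In a bulk library, fewer cells of a type and less RNA per cell cannot be told apart, and here neither can be told from a lower recovery by the tag. All 10 members passed the filter on low counts. For 7 of the 10, every pull-down library lay below every input library, which 18.3% of tested genes also showed. The exceptions were Aqp2, Aqp3 and Scnn1b.

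**Figure D1:**
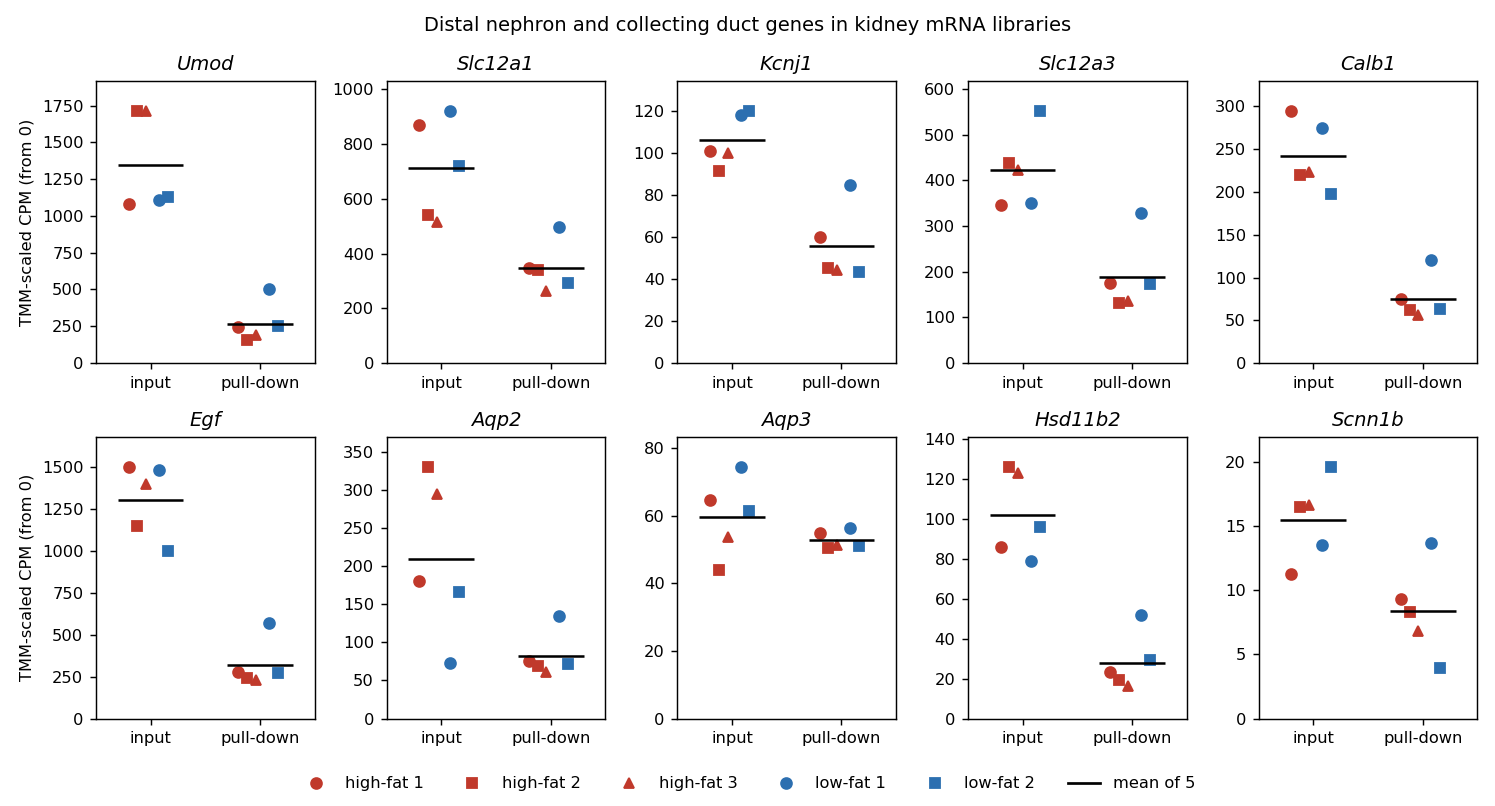
TMM-scaled CPM (vertical axis, from 0) of each member in the 5 input and 5 pull-down kidney libraries, coloured by diet and shaped by library number, with a bar at the mean of 5. Pull-down points lie below input points for 7 members, pull-down low-fat 1 is the highest pull-down point in every panel, and the 2 fractions overlap for Aqp2, Aqp3 and Scnn1b.

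Umod, whose product is the most abundant protein of normal urine, lies on chromosome 7 from 119462708 to 119479262 on the minus strand, behind the first promoter shown. Its level, in CPM after TMM scaling of library sizes, was 1083, 1711 and 1710 in high-fat inputs 1, 2 and 3 and 1109 and 1127 in low-fat inputs 1 and 2. In the pull-down it was 246, 155 and 189 in the high-fat and 502 and 251 in the low-fat libraries. The lowest input was thus above the highest pull-down, which was low-fat 1. Its log2 change was -2.25 ± 0.23 (SE, 5 libraries against 5), a 4.77-fold fall (edgeR adjusted p = 1.927e-05), and only 2.51% of tested genes had a change as low or lower.

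Slc12a1 (chromosome 2, 125152510 to 125230002, plus strand), the sodium-potassium-chloride cotransporter that loop diuretics block, gave 870.5, 541 and 516 CPM in the high-fat and 920 and 719 in the low-fat inputs. The pull-down libraries gave 347, 339 and 263 on high fat and 499 and 291 on low fat. The groups did not overlap, though high-fat inputs 2 and 3 came close to pull-down low-fat 1. The fall was 2.05-fold, with a log2 change of -1.04 ± 0.21 (SE; edgeR adjusted p = 0.0011). Kcnj1 (chromosome 9, 32372418 to 32399197), the potassium channel ROMK, was at 91.3 to 120.0 CPM in the inputs and 43.6 to 84.9 in the pull-downs. It fell by 0.93 ± 0.19 on the log2 scale (edgeR adjusted p = 0.00121). The RefSeq table places long non-coding genes over Slc12a1, Kcnj1, Egf and Aqp2. One of them, Gm14002, was counted at no more than 0.39 CPM in kidney, and with no stated strand its reads and those of Slc12a1 cannot be told apart.

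Slc12a3 (chromosome 8, 94329109 to 94366222, plus strand) encodes the thiazide-sensitive cotransporter that defines the distal convoluted tubule. It was at 346, 439 and 424 CPM in the high-fat inputs and 350.3 and 551 in the low-fat inputs. It was at 175, 132 and 135 CPM in the high-fat pull-downs and 329 and 172 in the low-fat ones, so that pull-down low-fat 1 lay just under the lowest input. The log2 change of -1.15 ± 0.20 was a 2.22-fold fall (edgeR adjusted p = 0.000541). Calb1 (chromosome 4, 15881264 to 15906709), a cytosolic calcium buffer, was at 197 to 294 CPM in the inputs and 55.7 to 121 in the pull-downs. Its fall of 3.14-fold, a log2 change of -1.65 ± 0.20, had an edgeR adjusted p of 5.454e-05.

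Egf (chromosome 3, 129677574 to 129755322, minus strand) encodes the precursor of a growth factor released into the urine. Its inputs were at 1504, 1152 and 1399 CPM on high fat and 1484 and 1004 on low fat. The pull-downs were at 279, 240.2 and 228 on high fat and 570.1 and 273 on low fat. The 4 pull-downs other than low-fat 1 lay within 228 to 279 CPM, and all 5 were far below the inputs. The fall was 4.01-fold, with a log2 change of -2.0 ± 0.21 (edgeR adjusted p = 2.438e-05).

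Aqp2 (chromosome 15, 99579056 to 99584545, plus strand), the vasopressin-regulated water channel, varied most among the inputs. It was at 181, 330.3 and 294 CPM in the high-fat and 73.2 and 166 in the low-fat inputs, a coefficient of variation of 49.7% over the 5. The pull-downs were at 75.4, 68.8 and 61.1 on high fat and 135 and 72.2 on low fat. Input low-fat 1 thus lay within the range of the pull-downs. The mean log2 change was -1.09 ± 0.26, a 2.13-fold fall (edgeR adjusted p = 0.0032), which passed in all 16 other settings tried.

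Aqp3 (chromosome 4, 41092724 to 41098183, minus strand), the channel through which water leaves principal cells, gave 64.6, 44.1 and 53.6 CPM in the high-fat inputs and 74.5 and 61.6 in the low-fat inputs. The pull-downs gave 55.0, 50.5 and 51.5 on high fat and 56.6 and 51.0 on low fat. The pull-downs lay inside the range of the inputs and close together, with a coefficient of variation of 5.06% against 19.3% in the inputs. The log2 change of -0.19 ± 0.15 did not pass (edgeR adjusted p = 0.298), with a 95% interval from -0.52 to 0.14. Under total-count scaling its value was 0.03. The interval of Aqp2 was -1.65 to -0.54, and the test of the ratio between both channels is given with the other ratios.

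Hsd11b2 (chromosome 8, 105518746 to 105523988) was at 86.0, 126 and 123 CPM in the high-fat and 79.0 and 95.6 in the low-fat inputs. It was at 23.1, 19.4 and 16.5 CPM in the high-fat and 52.0 and 29.3 in the low-fat pull-downs, all below the inputs. The fall was 3.51-fold, with a log2 change of -1.81 ± 0.20 (edgeR adjusted p = 3.035e-05). Scnn1b (chromosome 7, 121865038 to 121918728, plus strand), the beta subunit of the epithelial sodium channel, had the fewest counts, 33 to 87 in pull-down and 97 to 293 in input libraries. Its level was 11.2, 16.4 and 16.6 CPM in the high-fat and 13.5 and 19.6 in the low-fat inputs, and 9.28, 8.29 and 6.79 in the high-fat and 13.7 and 3.95 in the low-fat pull-downs. Pull-down low-fat 1 lay above 2 of the inputs and the groups overlapped. The log2 change of -0.92 ± 0.30 passed (edgeR adjusted p = 0.0225), but not under total-count scaling (0.0797), without input low-fat 2 (0.0525), without pull-down high-fat 3 (0.0557) or without pull-down low-fat 2 (0.0743).

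The fall was also read within each diet. Among high-fat libraries 8 of 10 members fell, where 25.7% of genes were called lower. Umod had a log2 change of -2.93 ± 0.29, Hsd11b2 of -2.51 ± 0.26, Egf of -2.44 ± 0.27 and Aqp2 of -1.97 ± 0.33, while Aqp3 (-0.05 ± 0.19) and Scnn1b (-0.87 ± 0.39, edgeR adjusted p = 0.0787) did not pass. Among low-fat libraries 5 of 10 fell (Umod, Slc12a1, Calb1, Egf and Hsd11b2), where 6.75% of genes were called lower. Umod changed by -1.57 ± 0.34 there, Egf by -1.56 ± 0.32 and Hsd11b2 by -1.11 ± 0.30, and Aqp2 had a value of -0.22 ± 0.39 (edgeR adjusted p = 0.729). The low-fat count rests on 2 libraries a fraction. It was 8 without pull-down low-fat 1 and 0 without input low-fat 1 or without pull-down low-fat 2, and it was 3 without any 1 of the high-fat pull-downs. Its range over all settings was 0 to 8. The count over all genes moved too, from 1937 to 3264 without pull-down low-fat 1, to 0 without input low-fat 1 or pull-down low-fat 2, and to 960 to 1481 without 1 of the high-fat pull-downs.

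**Figure D2:**
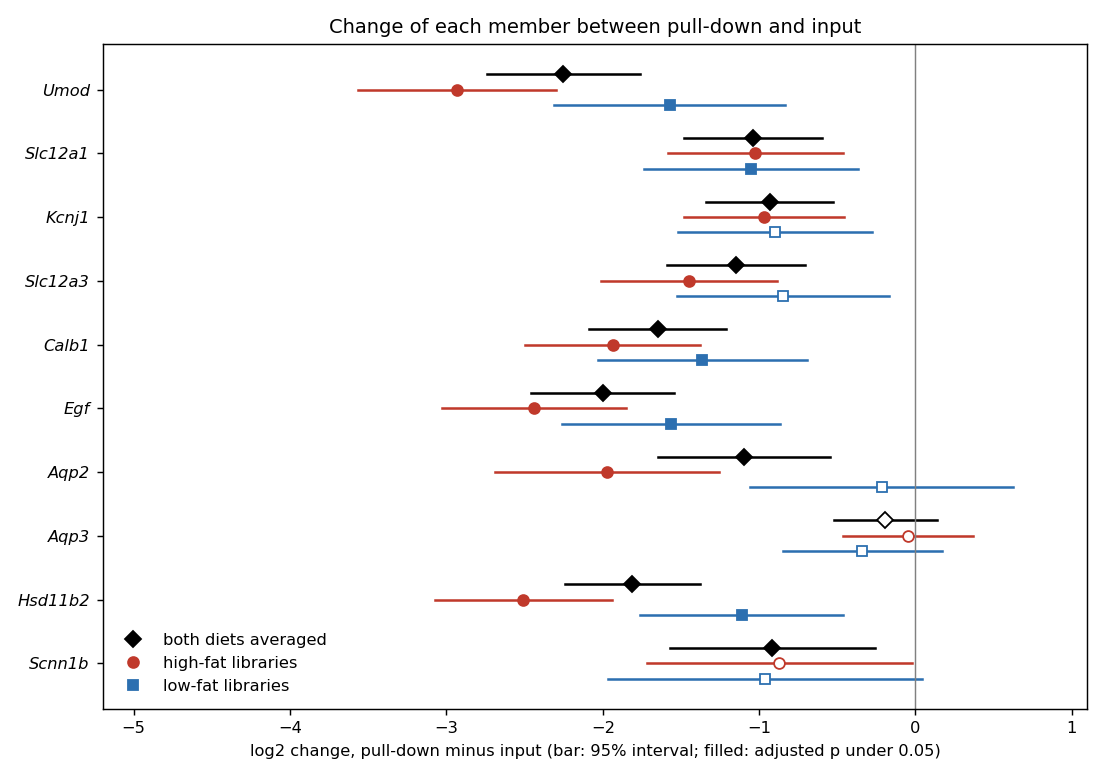
Log2 change from input to pull-down (horizontal axis) of each member, averaged over diets (diamonds) and within high-fat (circles) and low-fat libraries (squares), with 95% intervals and filled symbols for an adjusted p under 0.05. Averaged over diets, Umod, Egf and Hsd11b2 lie furthest to the left, and the 3 intervals of Aqp3 include 0.

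Diet itself was compared within each fraction. No gene of 15023 was called between diets in the input (0%), the pull-down (0%) or the difference between their diet changes (0%) by edgeR, and so no member was. In simulated kidney counts the input diet test recovered 11% of 100 genes changed by 1 on the log2 scale. It recovered 67% of 100 genes changed by 2, so that 0 calls cannot show that diet had no effect. At an unadjusted p under 0.05 there were 2582, 718 and 1970 genes, and DESeq2 called 528, 0 and 104 genes. Aqp2 in the input, where the 3 high-fat libraries (181 to 330.3 CPM) lay above the 2 low-fat ones (73.2 and 166), had a log2 difference of 1.16 ± 0.37 (high fat minus low fat) and an edgeR adjusted p of 0.166. DESeq2 called it (adjusted p = 0.0436), as did edgeR with no filter on low counts (0.000853) and without input high-fat 1 (log2 difference 1.38, adjusted p = 0.0148). In the last 2 settings 1201 and 2525 genes in all were called. The log2 difference was 0.70 without input low-fat 1 and 1.81 without input low-fat 2. The other 9 members had input differences from -0.35 (Slc12a1) to 0.43 (Umod), with 95% intervals that all include 0.

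In the pull-down the members were lower on high fat by value, from -1.04 ± 0.28 in Hsd11b2 and -0.94 ± 0.30 in Umod to -0.04 ± 0.22 in Aqp3, each with an edgeR adjusted p of 0.999. These values move with pull-down low-fat 1, whose part in them is shown by leaving it out. Hsd11b2 then had -0.59, Umod -0.36 and Egf -0.14, and Slc12a1 (0.11), Kcnj1 (0.18), Calb1 (0.015), Aqp3 (0.029) and Scnn1b (1.02) were above 0. The test of whether the pull-down change differed between diets gave the lowest values to Aqp2 (-1.76 ± 0.51), Hsd11b2 (-1.40 ± 0.39) and Umod (-1.36 ± 0.43), with unadjusted p of 0.00419, 0.0034 and 0.00773 and edgeR adjusted p of 0.2996, 0.291 and 0.307. These 3 passed with no filter on low counts (0.000409, 0.0229 and 0.0121) and without input high-fat 1 (0.0188, 0.0187 and 0.0268), settings in which 635 and 1397 genes in all were called. Their values without pull-down low-fat 1 were -1.25, -0.95 and -0.79.

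Ratios of 2 members within a library do not depend on library scaling. Each of 8 pairs was compared between 5 pull-down and 5 input libraries with a two-sided exact permutation test, adjusted over the 8. The count ratio of Umod to Slc12a1, both loop genes, was 1.24, 3.16 and 3.32 in the high-fat and 1.21 and 1.57 in the low-fat inputs. It was 0.709, 0.457 and 0.718 in the high-fat and 1.01 and 0.862 in the low-fat pull-downs, all lower. Umod thus fell more than Slc12a1, by 1.39 on the log2 scale (exact permutation p = 0.00794, the smallest the design allows, adjusted 0.0212). The ratio of Egf to Slc12a3, both distal tubule genes, was 1.82 to 4.35 in the inputs and 1.59 to 1.81 in the pull-downs, a fall of 0.89 on the log2 scale (exact permutation p = 0.00794, adjusted 0.0212). The inputs were spread while the 5 pull-downs lay close together. The ratio of Umod to Aqp2 fell by 1.20 on the log2 scale (exact permutation p = 0.00794, adjusted 0.0212), from 5.18 to 15.2 in the inputs to 2.25 to 3.73 in the pull-downs.

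Hsd11b2 to Scnn1b, a pair from the collecting duct, had a log2 difference of -0.999 (exact permutation p = 0.0238, adjusted 0.0476) that passed in 1 of 12 other settings. The remaining pairs did not pass. Slc12a1 to Slc12a3 differed by 0.19 (exact permutation, adjusted p = 0.524) and Scnn1b to Aqp2 by 0.26 (exact permutation, adjusted p = 0.524). Calb1 to Slc12a3 differed by -0.50 (exact permutation, adjusted p = 0.127), which passed without input low-fat 2. Aqp2 to Aqp3 differed by -1.07 (exact permutation, adjusted p = 0.148) and passed without input low-fat 1, whose ratio of 0.981 was the lowest of all 10 libraries. Within the inputs, Slc12a1 to Slc12a3 took 2 levels, 2.52 in high-fat 1 and 2.63 in low-fat 1 against 1.22 to 1.30 in the other 3 libraries. The pull-downs spanned 1.52 to 2.56.

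**Figure D3:**
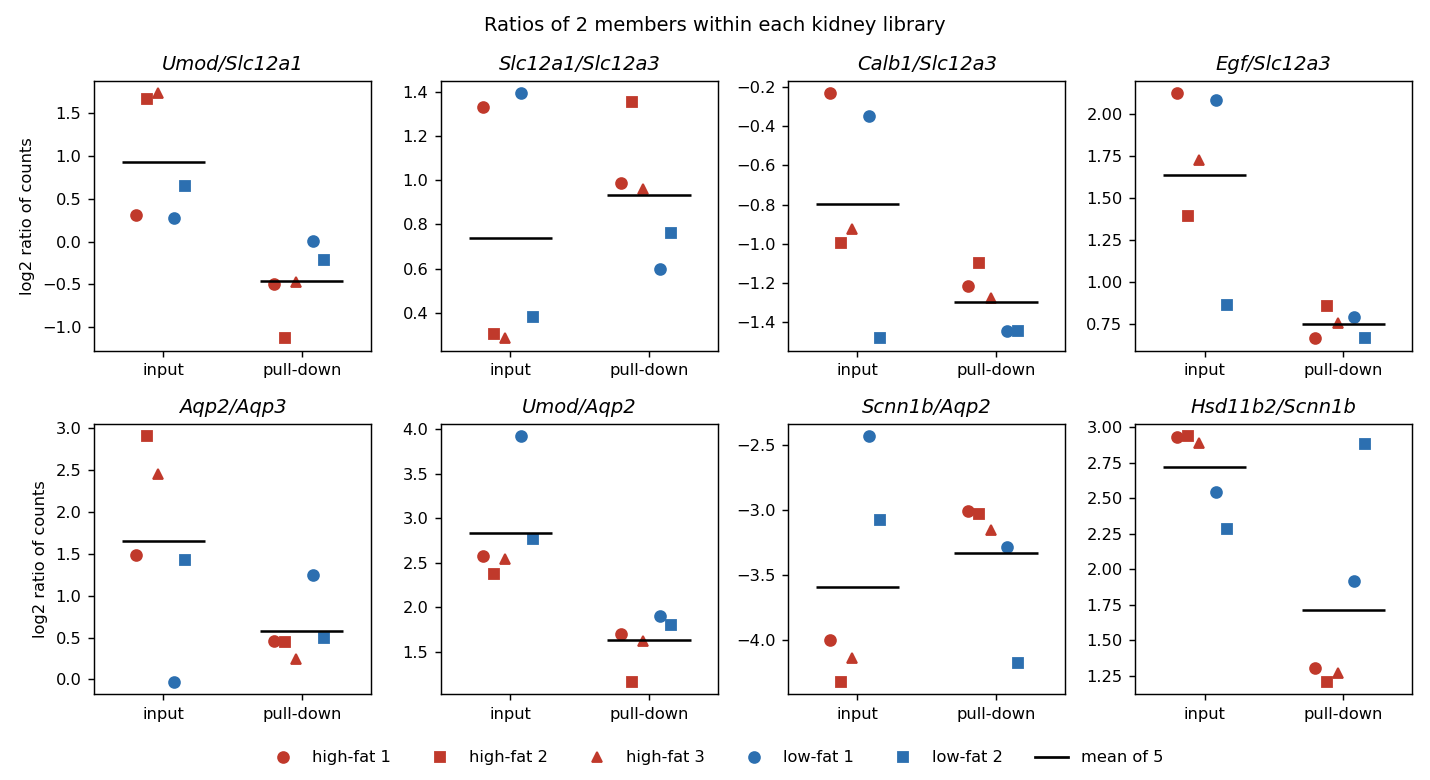
Log2 ratio of the counts of 2 members (vertical axis, not from 0) in each kidney library, by fraction, with a bar at the mean of 5 and symbols by diet and library number. Pull-down points lie below all input points for Umod/Slc12a1, Egf/Slc12a3 and Umod/Aqp2, and input high-fat 1 and low-fat 1 lie together above the other inputs for Slc12a1/Slc12a3.

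Lists of other genes of the same segments were read in the same contrast, where 26.4% of tested genes were called lower and 26.6% higher. Of 20 further loop genes 14 fell and 0 rose (median log2 change -1.04), with Cldn16 (-2.41 ± 0.41), a paracellular channel for magnesium and calcium, Sostdc1 (-2.20 ± 0.20), a secreted antagonist of BMP and Wnt signals, and Ppp1r1a (-2.16 ± 0.21), a protein phosphatase inhibitor, at the front. Of 19 tested distal convoluted tubule genes 9 fell and 3 rose (median -0.48). S100g, which encodes the calcium binder calbindin-D9k, had a change of -2.92 ± 0.22, the calcium channel gene Trpv5 of -2.09 ± 0.47 and the kallikrein gene Klk1 of -2.09 ± 0.22. The 3 that rose were Emx1 (0.90 ± 0.22), a homeobox gene, Trpm7 (0.88 ± 0.18), a cation channel with a kinase domain, and Oxsr1 (0.62 ± 0.15), a kinase that acts on Slc12 cotransporters. Whether the genes that rose or fell are restricted to this segment was not checked.

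Of 19 tested principal cell genes 12 fell and 3 rose (median -0.79), against 26.4% lower and 26.6% higher over all tested genes. Fxyd4, a regulator of the sodium pump, had a change of -2.52 ± 0.25, the potassium channel subunit gene Kcne1 of -1.79 ± 0.31 and the prostaglandin synthase gene Ptgs1 of -1.66 ± 0.33. The 3 that rose were Nedd4l (0.88 ± 0.15), a ubiquitin ligase that removes the sodium channel from the membrane, Sgk1 (0.79 ± 0.23), an aldosterone-induced kinase, and Tsc22d3 (0.67 ± 0.14), induced by glucocorticoids and aldosterone. Whether the genes of this list that rose or fell are restricted to the collecting duct was not checked. The summed level of the list was higher in the pull-downs, at 1010 to 1259 CPM against 751 to 992 in the inputs. The channel subunits Scnn1a (-0.84) and Scnn1g (-0.76) fell together with Scnn1b, though the calls of Scnn1g and Scnn1b were lost under total-count scaling. Intercalated cells, the acid-base cells of the collecting duct, had 18 of 20 genes lower and 0 higher (median -1.28), led by the anion exchanger gene Slc26a7 (-3.57 ± 0.59), the ammonia transporter gene Rhbg (-2.83 ± 0.38) and the homeobox gene Hmx2 (-2.17 ± 0.42).

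Transcription factors of the distal nephron were split. Of 24, 8 fell and 9 rose (median -0.07, against 26.4% lower and 26.6% higher among all tested genes), and under total-count scaling 6 and 11 were called (median 0.16). Hoxd8 (-1.48 ± 0.16), the estrogen-related receptor gene Esrrb (-1.28 ± 0.21) and the forkhead gene Foxq1 (-1.18 ± 0.21) fell most. Elf3 (1.28 ± 0.29), an epithelial ETS factor, Emx2 (1.15 ± 0.21), a homeobox gene needed for the urogenital system, and Pax8 (1.14 ± 0.14), a paired-box gene of the whole renal epithelium, rose most. Over these 5 lists, 61 of 102 tested genes fell and 15 rose (median -0.94). Under total-count scaling 64 of the 76 calls were kept and 0 turned, and 3 genes changed sign, none of them called. The counts were then 49 and 17, where the median over all tested genes was 0.23. Without pull-down low-fat 1 the median of the 5 lists was -1.21, and without input high-fat 1 and low-fat 1 together it was -1.015. The median over all tested genes is not given for these 2 settings.

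**Figure D4:**
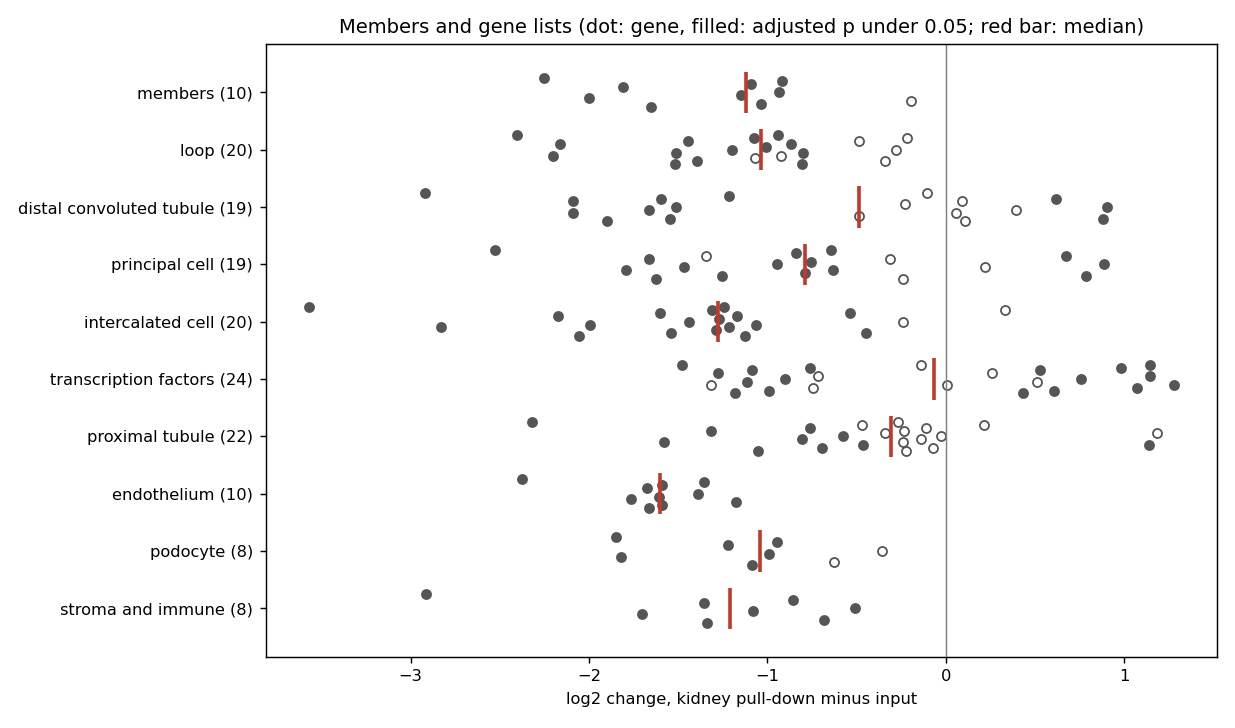
Log2 change from kidney input to pull-down (horizontal axis) of each tested gene in the members and 9 marker lists, with filled dots for an adjusted p under 0.05, a red bar at the median and the number of tested genes in brackets. The transcription factors lie on both sides of 0 with a median of -0.07, while the intercalated cell and endothelial lists lie almost wholly to the left.

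Markers of other kidney cell types moved with the members, in the contrast where 26.4% of tested genes were called lower and 26.6% higher. Of 10 endothelial genes 10 fell (median -1.60), and their summed level was 165 to 298 CPM in the inputs and 63.4 to 183 in the pull-downs. All 8 stromal and immune genes fell (median -1.21) and 6 of 8 podocyte genes did (median -1.04), with sums of 167 to 259 against 69.7 to 155 CPM and of 120 to 166 against 50.2 to 103 CPM. Of 22 proximal tubule genes 9 fell and 1 rose (median -0.31). Under total-count scaling, where the median over all tested genes was 0.23, they were 8 and 3. Lrp2, the megalin gene used as proximal reference, had -0.07 ± 0.17 (edgeR adjusted p = 0.738), but the summed proximal level was 89630 to 104800 CPM in the inputs and 40430 to 58430 in the pull-downs. None of these markers was at 0 in all libraries of a fraction. Of 4 tested hepatocyte genes 0 were called. The part of these cell types in the members' values was not tested.

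The likeness of other genes to 4 members was measured as Pearson's r of log2 TMM-scaled CPM over the 10 kidney libraries, among 8335 genes of at least 10 CPM. The points share their libraries and the split into fractions, so the values are descriptions. The 3 genes most like Umod were Ly6a, Klk1 and Ifitm2 (r of 0.996 each), and those most like Egf were Sugct, Itm2b and Etfa (0.996 to 0.997). Among those most like Slc12a3 were Atp6v1b1 (0.993), a proton pump subunit of intercalated cells, and Pecam1 (0.987), an endothelial gene. Those most like Aqp2 were Rps19bp1, Tex264 and Tecpr1 (0.988 to 0.991). Among the members, Egf and Calb1 had r = 0.995 and Umod and Hsd11b2 0.990, whereas Aqp3 had -0.19 with Aqp2 and 0.28 with Umod.

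Egf was low in liver and its pull-down change had the opposite sign. Liver inputs had 4, 6 and 8 counts on high fat and 11, 10 and 9 on low fat, or 1.29, 1.70 and 1.78 and 4.62, 2.33 and 2.43 TMM-scaled CPM. The pull-downs had 30, 19 and 17 counts on high fat and 21, 25 and 27 on low fat, or 5.80, 4.95 and 4.46 and 5.76, 6.72 and 7.27 CPM. Input low-fat 1 was the highest input and overlapped the lowest pull-down, high-fat 3. The rise was 2.63-fold, a log2 change of 1.39 ± 0.23 (6 libraries against 6, edgeR adjusted p = 0.000121), where 37.7% of the 10865 liver genes tested were called higher. It passed in the 18 other settings that gave a value, with log2 changes from 1.28 to 1.64. Diet differences (high fat minus low fat) did not pass, with -0.87 ± 0.37 in the input (edgeR adjusted p = 0.135), where 22.5% of genes were called, and -0.37 ± 0.28 in the pull-down (0.551), where 5.95% were. The input difference was -0.50 without input low-fat 1, which differed from low-fat 2 and 3 by a chi-square per degree of freedom of 62.5 and 58.8. Those libraries differed from each other by 1.13, and high-fat inputs 1 and 3 by 1.18, and with each such pair summed as 1 library the rise of Egf was 1.31 on the log2 scale. In liver 6330410L21Rik, a non-coding gene that overlaps Egf, had 0 counts in all 12 libraries, which allows up to 3 counts or 0.0662 CPM over them, and in kidney it had 0.262 to 4.39 CPM.

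In a model of both tissues, 13724 genes were tested. The pull-down change of Egf was higher in liver than in kidney by 3.25 ± 0.31 on the log2 scale (edgeR adjusted p = 1.485e-06), where 3.75% of genes were called higher and the median over genes was -0.19. Its input level was 445.5-fold lower in liver, a log2 difference of -8.80 ± 0.24 (edgeR adjusted p = 3.51e-18), where 33.5% of genes were called lower. The values rest on 4 to 11 counts per liver input library. The other 9 members did not pass the filter in liver and were not tested there. Over the 12 liver libraries together, Slc12a3 had 23 counts, Umod 22, Slc12a1 14 and Calb1 7. Kcnj1, Aqp2, Aqp3, Hsd11b2 and Scnn1b had 0 to 3, at or below the 3 counts that a count of 0 allows. Of the liver inputs, low-fat 1 held 9 of the 22 Umod counts, and its 12.5 CPM of the 10 members together was the highest liver sum, against 1.76 to 10.7 in the other 11.

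**Figure D5:**
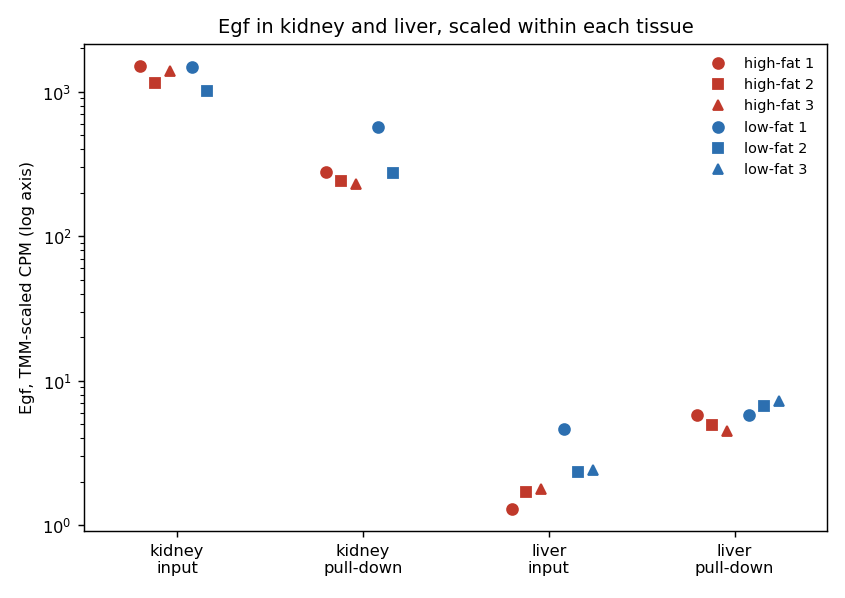
Egf in TMM-scaled CPM (vertical log axis, scaled within each tissue) in kidney and liver libraries by fraction, with symbols by diet and library number. Kidney points fall from 1004 to 1504 in the input to 228 to 570.1 in the pull-down, while liver points rise from 1.29 to 4.62 to 4.46 to 7.27.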

How the data were processed

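Raw counts per gene were deposited for each library. The submitters' processing notes name STAR, HTSeq and the mm10 build. Neither their versions nor the annotation release or strand setting is given in the sources used here. Per the labels, frozen tissue was extracted with NucleoZOL, and the CATS small RNA kit was used for sequencing libraries. The 22 kidney and liver mRNA libraries of 59 were used, grouped by tissue, fraction and diet from their titles. The files hold reads without molecular identifiers, so floors (3 counts) cover counting error only.

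Counts were tested with edgeR 4.0.16 (R 4.3.3, limma 3.58.1) by the quasi-likelihood F test, with TMM scaling, filterByExpr (minimum count 10, minimum total 15) and 1 coefficient per group, separately in kidney, liver and both. Adjusted p is the Benjamini-Hochberg value over all tested genes of a contrast, called under 0.05. The SE is the log2 change divided by the square root of F, and intervals are 95%. Kidney contrasts were pull-down minus input (both diets averaged, and within each), high fat minus low fat in each fraction, and the difference of these. Member ratios used counts plus 0.5. The tests were checked on simulated kidney counts, with 100 genes changed by 1 and 100 by 2 on the log2 scale. Pull-down minus input recovered 51% and 83% of them, and 7.59% of its calls were false. For diet in the input 11% and 67% were recovered, and 9.3% of calls were false. All other genes of the 15023 were left unchanged there, whereas 7961 were called in the measured pull-down minus input contrast. The simulated rates may thus not hold for that contrast. DESeq2 1.42.0 and other scalings, filters, blocks and left-out libraries were alternatives.

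The members, lists and tests were chosen with earlier results of these data known. Named genes are the members, the 3 largest falls and 3 largest rises among called genes of each distal list, the 3 genes most like 4 members, and Lrp2; 1 of these is not reported here. Scnn1a and Scnn1g were named after their values were seen. Levels were not compared between genes, since no transcript lengths were used here. Deviations of same-numbered kidney input and pull-down libraries correlated at -0.17 to -0.016 over genes, so these were not taken as pairs. Across diets, r was 0.33 and 0.42 in kidney inputs, 0.13 and 0.00091 in kidney pull-downs (2 pairs each, no label of a shared batch) and -0.38 to 0.21 in liver inputs. In liver pull-downs all 3 pairs were at 0.14 to 0.15, above the 0.1 taken as pairing, and with the block the diet difference of Egf there was -0.38 (edgeR adjusted p = 0.588). The 2 pairs of kidney inputs were also above 0.1. Libraries of different numbers passed 0.1 across diets too, at up to 0.39 in liver inputs and 0.15 in kidney inputs. In liver pull-downs those of different numbers were at -0.12 to -0.016. A value above 0.1 thus does not by itself show pairing. With a block by number no member was called for diet in the kidney input. Over the settings other than left-out libraries, this block among them, the log2 difference of Aqp2 there was 1.01 to 1.19.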

Additional observations from a re-analysis of the deposited data

Results flagged for a closer look

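The pull-down change of Egf differed between tissues by 3.25 ± 0.31 on the log2 scale (liver minus kidney, edgeR adjusted p = 1.485e-06), the result for which the test of a difference between groups passed. Egf fell by 2.00 in kidney and rose by 1.39 in liver. The value was 3.03 to 3.68 over 29 other settings, and 3.48 with the 2 close pairs of liver input libraries each summed and counted once. Liver counts of Egf were 4 to 30 per library.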

How the results depend on the processing

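In kidney pull-down minus input, 8 or 9 members were called lower in all 16 other settings, and in high-fat libraries 8 or 9 in 17. Over the settings other than left-out libraries, 5889 to 8389 genes in all were called, lower or higher, against 7961 in the main setting. In high-fat libraries these were 5943 to 7875 against 7725, and in low-fat libraries 2 to 2716 against 1937. In low-fat libraries the count of 5 was 3 under total-count scaling, 8 with no filter on low counts, 2 with a replicate block by diet and number, 0 when only the low-fat groups were fitted, and 0 to 8 leaving out 1 library each; crossing the low-fat numbers in the block (added after seeing the data) gave 4, with 888 genes called against 1937 without a block and 182 uncrossed. Where that left 1 library in a group, its spread was taken to be that of the other groups. For diet in the input, 1 member (Aqp2) was called with no filter and with DESeq2, and 0 to 1 leaving out 1 library. For the diet difference of the pull-down change, 3 were called with no filter, and 0 to 3 leaving out 1 library, where 635 genes were called with no filter and 1397 without input high-fat 1, against 0. With numbers as pairs (exact sign flips over 5 pairs), 0 of the 4 called ratios passed, with adjusted p of 0.167 for 3 of them and 0.2 for Hsd11b2 to Scnn1b, in a test whose 5 pairs cannot give a p under 0.05, and 3 to 4 passed leaving out 1 library. The block changed no other member count. Without the filter or without input high-fat 1, 1201 and 2525 genes were called for diet in the input, against 0.

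Under total-count scaling Aqp3 turned to 0.03 (pull-down minus input), 0.25 (high fat) and 0.0006 (diet, pull-down), Calb1 to -0.038 (diet, input) and Kcnj1 to 0.078 (diet difference). Leaving out 1 library turned values that were not called. Ranges were -0.17 to 0.11 for Aqp3 in high-fat libraries and -0.75 to 0.35 for Aqp2 in low-fat libraries. For diet in the input they were -0.45 to 0.14 (Slc12a3), -0.22 to 0.32 (Calb1), -0.20 to 0.43 (Egf) and -0.40 to 0.066 (Scnn1b). For diet in the pull-down they were -0.67 to 0.11 (Slc12a1), -0.78 to 0.18 (Kcnj1), -0.92 to 0.015 (Calb1), -0.12 to 0.029 (Aqp3) and -0.77 to 1.02 (Scnn1b). For the diet difference they were -0.32 to 0.46 (Slc12a1), -0.49 to 0.47 (Kcnj1) and -0.60 to 1.19 (Scnn1b). The cause was not tested. Egf in liver could not be fitted with a minimum of 10 CPM, nor in input diet with only the groups compared, since it did not pass the filter. Counts were 33 to 87 per pull-down library for Scnn1b and 4 to 30 per liver library for Egf.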
